A study of Mus musculus with 10 samples.

Results

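Oxidative phosphorylation in mitochondria runs through 5 protein complexes, and the genes described here encode complexes II, III and V and cytochrome c. Members were the protein-coding genes whose mouse symbol begins with Sdha to Sdhd or Sdhaf (succinate dehydrogenase, complex II), with Uqcr or Uqcc, or is Cyc1 (complex III), begins with Atp5 or Atpaf (ATP synthase, complex V), or is Cycs (cytochrome c). The rule used symbols alone. It gave 45 gene identifiers of the 56748 in the count files, under 44 symbols: 8 of complex II, 15 of complex III, 21 of complex V and 1 of cytochrome c. A second identifier named Atp5po had 0 counts in every library and was not tested, so 44 genes passed the filter on low counts. RNA came from whole hearts, atria and ventricles together, of wild-type male C57BL/6 mice bought at 8 weeks of age. The training group of 5 mice ran on a treadmill at 15 m/min for 120 min a day on 5 days a week for 8 weeks, and the 5 sedentary mice did not run. Each heart gave 1 library, so errors are between animals. The running was forced, and the hour of the day at which hearts were taken is not given in the sources used here.

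Complex II oxidizes succinate in the citric acid cycle and hands the electrons to ubiquinone. Complex III passes electrons from ubiquinol to cytochrome c, a small soluble carrier that delivers them to complex IV, and pumps protons on the way. Complex V lets the protons flow back through its membrane part, Fo, whose rotating ring of c subunits drives ATP synthesis in the catalytic head, F1. The heart depends on this pathway for nearly all of its ATP and is among the tissues richest in these transcripts.

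Counts of uniquely mapped reads on the sense strand of genes were between 29461697 and 39431030 per heart, which leaves animal-to-animal spread rather than counting as the main error for all but the lowest members. Levels are given as CPM, counts scaled to library size. Fold changes are log2 of training over sedentary with their standard error (SE), and a gene was called at a Benjamini-Hochberg adjusted p of edgeR's quasi-likelihood test below 0.1. In tissue RNA, fewer cells of a type and less RNA per cell cannot be told apart. All 8 cardiomyocyte markers were detected, with a summed level of 62263 to 67772 CPM in training and 65463 to 74614 CPM in sedentary hearts, and all 8 had fold changes below 0 with a median of -0.11, of which Actc1 was called lower at -0.38 (SE 0.077, adjusted p = 0.022). The 6 atrial markers all had fold changes above 0 with a median of 0.62 and a summed level of 5053 to 7617 CPM against 2789 to 6837 CPM, and 2 of them, Sln and Dkk3, were called higher. In this list the groups overlapped, and sedentary heart 2 held the lowest mean log2 level and training heart 3 the highest. With the atrial score as a covariate, 0 of 44 members were called at an adjusted p below 0.1 of edgeR's quasi-likelihood test, beside 0.608% of all genes in either direction and 0.498% lower. The member median was then -0.08 (-0.08 without the covariate), and Atp5f1d and Cycs stood at -0.20 and -0.30, while Uqcc6, Uqcr11 and Uqcrq stood at -0.14, -0.24 and -0.17.

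Of the 44 tested members, 5 were called lower after training and 0 higher, or 11.4%, beside 4.26% of all 15454 tested genes called lower and 7.01% called in either direction. At an unadjusted p below 0.05 there were 15 members, beside 20.0% of all tested genes, and DESeq2 called 8 lower, beside 5.54% of all genes. The 5 were Uqcr11, Uqcrq and Uqcc6 of complex III, Cycs, and Atp5f1d of complex V. The changes were small, between -0.27 and -0.21. The fold change was below 0 in 41 of 44 members, against 49.9% of all genes, with a median of -0.08 beside 0.00026 over all genes. How many members lay below 0 depended on the scaling: with library totals alone, which moved the median of all genes to 0.05, it was 33 of 44, and on the deposited TPM scale, where the median of all genes was 0.08, it was 23 of 44 with a member median of -0.0047. The 3 members above 0 were Sdhaf3 at 0.06, Sdha at 0.04 and Atp5f1b at 0.04, and none of them was called.

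**Figure D1:**
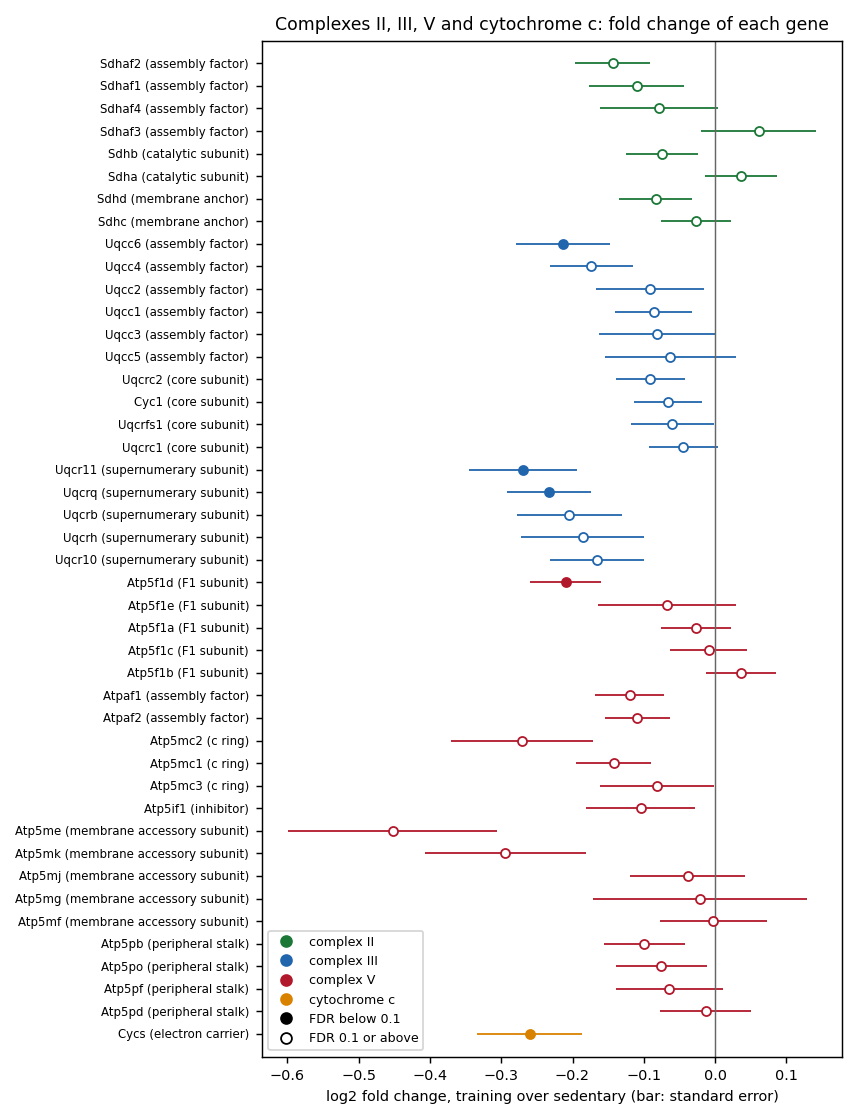
Log2 fold change, training over sedentary, of the 44 tested genes (x axis) by gene and role (y axis), with bars of 1 standard error and colours for the complex. Filled points are the 5 genes with an adjusted p below 0.1, all to the left of 0, and 41 of 44 points lie below 0.

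The count of called members changed with single libraries, as did that of all genes. Without training heart 1 there were 14 called members, or 31.8%, beside 3.98% of all genes called lower in that fit. Without training heart 3, training heart 4, sedentary heart 2 or sedentary heart 3 there was 1 of 44, Atp5f1d, beside 2.26%, 2.07%, 2.49% and 1.91% of all genes called lower in those fits. Without sedentary heart 4 there were 2, Atp5f1d and Uqcrq, beside 2.55%. Without training heart 2 there were 5, beside 710 of 15614 genes called lower, and without training heart 5 there were 4, beside 455 of 15614. Without sedentary heart 1 there were 7, beside 835 of 15561, and without sedentary heart 5 there were 4, beside 476 of 15581. All of these members were called lower.

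Complex III held 3 of the 5 calls, and its small supernumerary subunits, which surround the catalytic core without carrying redox groups, had the lowest median. All 15 of its genes were below 0, with a median of -0.09, and 20% of them were called lower, beside 4.26% of all tested genes. The median was -0.20 over the 5 supernumerary subunits Uqcr10, Uqcr11, Uqcrb, Uqcrh and Uqcrq, -0.06 over the 4 core subunits, and -0.09 over the 6 assembly factors. Role and length went together: the supernumerary genes were 436 to 542 bases long and the core genes 976 to 1705 bases. The 2 cannot be told apart here.

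Uqcrq (chromosome 11, 53318749 to 53322047, minus strand, GRCm39), a small membrane-spanning subunit of complex III, stood at 364, 355, 331, 327 and 290 CPM in training hearts 1 to 5 and at 361, 407, 384, 400 and 408 CPM in sedentary hearts 1 to 5. All training hearts but number 1 lay below the lowest sedentary heart. The fold change was -0.23 (SE 0.059, adjusted p = 0.049).

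Uqcr11 (chromosome 10, 80236542 to 80242676, minus strand), the smallest subunit of the complex, was measured at 206, 180, 181, 175 and 142 CPM in training and at 198, 215, 210, 216 and 226 CPM in sedentary hearts. Training heart 1 sat among the sedentary values and training heart 5 far under all others. The fold change was -0.27 (SE 0.076, adjusted p = 0.069), while RSEM's expected counts, which share out reads that match several genes, gave -0.21 with an adjusted p of 0.117.

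Uqcc6, a factor needed for complex III assembly, was the weakest of the calls and a low transcript, at 9.03, 8.59, 7.52, 7.94 and 8.23 CPM in training and at 9.32, 9.55, 9.85, 8.96 and 10.2 CPM in sedentary hearts (fold change -0.21, SE 0.066, adjusted p = 0.094). The groups overlapped only through training heart 1 and sedentary heart 4. Of the other assembly factors, Uqcc4 had a fold change of -0.17 (SE 0.058, adjusted p = 0.121), and Uqcc1, Uqcc2, Uqcc3 and Uqcc5 lay between -0.09 and -0.06.

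The core of complex III was not called. Cyc1, the cytochrome c1 that donates electrons to cytochrome c, had 622 ± 31 CPM in training and 652 ± 33.5 CPM in sedentary hearts (mean ± SD, n = 5 each; fold change -0.07, SE 0.048). The Rieske iron-sulfur protein gene Uqcrfs1 had -0.06 (SE 0.058), and the core protein genes Uqcrc1 and Uqcrc2 had -0.04 (SE 0.049) and -0.09 (SE 0.048). Cytochrome b, the remaining catalytic subunit, is encoded by mitochondrial DNA, and mt-Cytb had 38742 ± 1898 CPM in training and 41805 ± 3040 CPM in sedentary hearts (fold change -0.11, SE 0.065, adjusted p = 0.378).

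Cycs (chromosome 6, 50539541 to 50543557, minus strand) encodes the somatic cytochrome c and also takes part in apoptosis once released from mitochondria. It was lower in training hearts, with 139, 113, 112, 108 and 104 CPM, than in sedentary hearts, with 135, 142, 150, 141 and 122 CPM. Training heart 1 again overlapped with the sedentary group, and the other training hearts lay below all sedentary hearts. The fold change was -0.26 (SE 0.074, adjusted p = 0.071), and RSEM's expected counts, 3.23 times as many as the unique counts for this gene, gave -0.25 (SE 0.060, adjusted p = 0.047).

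**Figure D2:**
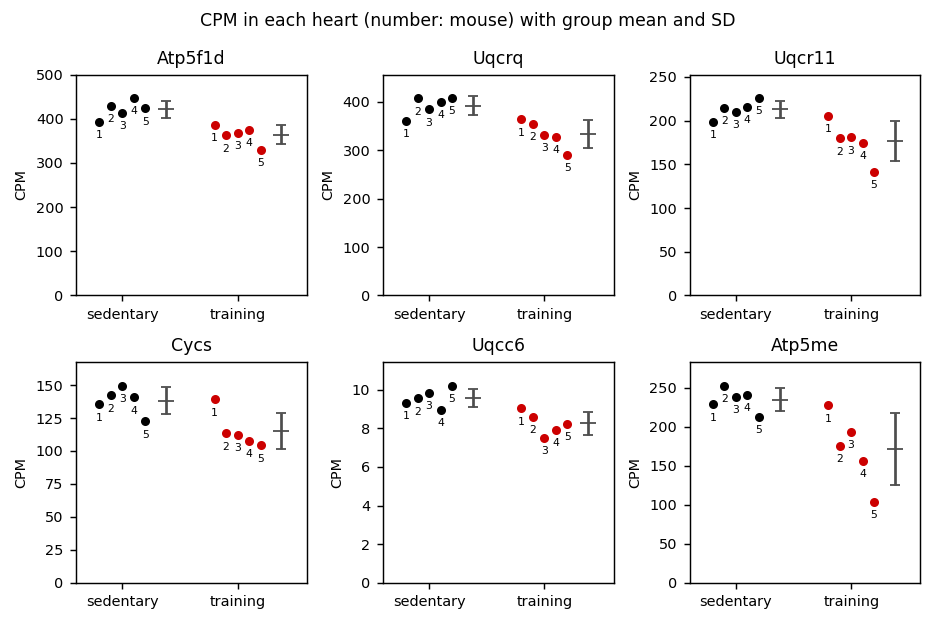
CPM (y axis, from 0) of the 5 called genes and Atp5me in each heart, black for sedentary and red for training, with the mouse number at each point and the group mean with its SD at the side. Atp5f1d is the only one of the 6 whose groups do not overlap, and training heart 1 is the highest training point in every panel.

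Complex V had 19 of 20 tested genes below 0 with a median of -0.08 and 1 call, or 5%, beside 4.26% of all tested genes called lower. Atp5f1d (chromosome 10, 79974466 to 79981652, plus strand) encodes the delta subunit in the central stalk of F1, which turns with the c ring. Training hearts had 387, 362, 368, 376 and 329 CPM and sedentary hearts 393, 430, 414, 447 and 423 CPM. It was the only member whose groups did not overlap, where 2.94% of all tested genes lay wholly lower after training. The fold change was -0.21 (SE 0.049, adjusted p = 0.038), and it was called without any 1 of the 10 hearts, with log2 values from -0.23 to -0.18.

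The other genes of F1 were not called. The fold change was 0.04 (SE 0.049) for Atp5f1b, the catalytic beta subunit, with 4661 ± 216 CPM in training and 4546 ± 168 CPM in sedentary hearts, and its 95% interval ran from -0.06 to 0.13. Atp5f1a, the alpha subunit, had -0.03 (SE 0.049, interval -0.12 to 0.07), Atp5f1c, the gamma subunit of the rotor, had -0.01 (SE 0.054), and Atp5f1e, the epsilon subunit, had -0.07 (SE 0.097, interval -0.26 to 0.12).

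Among the small subunits of the membrane part, Atp5me (subunit e, chromosome 5, 108581110 to 108582949, minus strand) had the lowest fold change of all members but a wide spread. It stood at 228, 176, 194, 156 and 104 CPM in training and at 229, 253, 238, 241 and 213 CPM in sedentary hearts. Only training heart 1 reached the sedentary range. The fold change of -0.45 (SE 0.147) had an adjusted p of 0.109, and Atp5mk, a late-joining subunit that helps the dimers of the enzyme, had -0.29 (SE 0.113, adjusted p = 0.167). Atp5mj, Atp5mg and Atp5mf lay between -0.04 and -0.0025.

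The peripheral stalk, which keeps F1 from turning with the rotor, was not called either: Atp5pb had -0.10 (SE 0.057), Atp5po -0.08 (SE 0.063), Atp5pf -0.06 (SE 0.075) and Atp5pd -0.01 (SE 0.064). Atp5if1, the inhibitor that blocks the enzyme when it would run backwards and hydrolyse ATP, had 57.3 ± 7.77 CPM against 61.6 ± 2.93 CPM (fold change -0.10, SE 0.076, adjusted p = 0.487). The F1 assembly factors Atpaf1 and Atpaf2 had -0.12 (SE 0.048, adjusted p = 0.186) and -0.11 (SE 0.045, adjusted p = 0.196). Of the mitochondrially encoded subunits, mt-Atp6 and mt-Atp8 had a mean of at most 0.204 CPM in the unique counts of either group. They were therefore not tested in those counts, while RSEM's expected counts gave fold changes of -0.13 for mt-Atp6 and -0.64 for mt-Atp8.

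The c ring has 3 genes, Atp5mc1 (chromosome 11), Atp5mc2 (chromosome 15) and Atp5mc3 (chromosome 2), whose proteins differ in the import peptide and share the mature subunit. Read from the annotated GRCm39 transcripts, the last 79 codons, stop included, spelled the same amino acids in all 3. Over those 237 bases Atp5mc2 differed from Atp5mc1 at 36 (84.8% identical) and Atp5mc3 at 51 (78.5% identical). The first 60 bases of this stretch are shown as an example, with capitals at bases that differ from Atp5mc1. They hold 7 of the differences of Atp5mc2 and 16 of those of Atp5mc3.
Atp5mc1: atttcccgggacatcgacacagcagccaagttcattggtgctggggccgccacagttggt
Atp5mc2: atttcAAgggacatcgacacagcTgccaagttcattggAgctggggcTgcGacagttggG
Atp5mc3: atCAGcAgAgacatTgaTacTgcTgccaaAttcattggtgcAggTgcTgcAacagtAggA
None of the 100-base windows of the Atp5mc3 transcript had an exact copy elsewhere in GRCm39, against 48.7% of those of Atp5mc1, mostly at the pseudogene Gm10039, and most of those of Atp5mc2.

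None of the 3 was called. Atp5mc1 had 504 ± 35.5 CPM in training and 557 ± 25.4 CPM in sedentary hearts (fold change -0.14, SE 0.053, adjusted p = 0.154). Atp5mc2 had -0.27 (SE 0.0997, adjusted p = 0.152) and Atp5mc3 -0.08 (SE 0.080, adjusted p = 0.622). As shares of the unique counts per kilobase of the 3 genes, Atp5mc1 made up 39.6 ± 1.93% in training and 40.3 ± 0.795% in sedentary hearts, Atp5mc2 4.36 ± 0.578% and 4.87 ± 0.838%, and Atp5mc3 56.1 ± 2.44% and 54.8 ± 1.62%. The difference in share had a two-sided exact permutation p of 0.540, 0.317 and 0.397 (each 0.540 after Benjamini-Hochberg adjustment over the 3 shares). The order of the genes depended on the counting: in TPM, Atp5mc1 led with 46.4 ± 0.577% of the sedentary total, Atp5mc3 followed with 42.4 ± 1.77%, and Atp5mc2 rose to 11.3 ± 1.28%.

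Of the 8 genes of complex II 0 were called, beside 4.26% of all tested genes called lower, which in so few genes does not set this complex apart. Below 0 lay 6 of the 8, with a median of -0.08. Sdha, the flavoprotein that oxidizes succinate, had 1464 ± 77.0 CPM in training and 1428 ± 75.3 CPM in sedentary hearts (fold change 0.04, SE 0.051, 95% interval -0.06 to 0.14). Its iron-sulfur partner Sdhb had 578 ± 37.0 CPM and 608 ± 28.8 CPM (-0.07, SE 0.051), and the membrane anchors Sdhc and Sdhd had -0.03 (SE 0.049) and -0.08 (SE 0.051). Of the assembly factors, Sdhaf2, which helps attach the flavin to Sdha, had the lowest value of the complex at -0.14 (SE 0.053, adjusted p = 0.151), and Sdhaf3 the highest at 0.06 (SE 0.080), with Sdhaf1 and Sdhaf4 at -0.11 and -0.08.

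Levels between genes were compared per length, as TPM, which divides by gene length, in sedentary hearts. Atp5f1b led with 3178 ± 112 TPM and Atp5f1a followed with 1915 ± 106 TPM. Atp5mc1 with 1487 ± 100 TPM, Atp5mc3 with 1363 ± 157 TPM and Atp5pd with 1289 ± 80.2 TPM came next, and neighbours among these last named genes differed by less than the larger of their SDs. At the other end stood assembly factors, from Uqcc2 with 122 ± 7.22 TPM down to Sdhaf1 with 7.73 ± 0.781 TPM and Sdhaf3 with 1.77 ± 0.176 TPM. Summed, complex V held 17364 ± 959 TPM, complex III 6618 ± 316 TPM, complex II 2098 ± 109 TPM and Cycs 324 ± 26.5 TPM. The training sums were 17802 ± 719, 6411 ± 249, 2124 ± 47.5 and 289 ± 27.4 TPM. A few abundant genes carry these sums, and this scale does not correct for composition. The mean sums of complexes V and II were higher in training and those of complex III and Cycs lower. The groups overlapped in all of them, and for complexes II, III and V the difference was smaller than the SD of either group. These differences were not tested.

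The hearts of a group were not alike for these genes, and the differences ran through all complexes at once. Training heart 1 was the highest of the 10 hearts in 17 of 44 members, beside 11.6% of all tested genes, and the highest training heart in 39 of 44. Training heart 5 was the lowest of all in 28 of 44, beside 10.4% of all genes, and sedentary heart 2 the highest in 16 of 44. Relative to the sedentary mean, the median member stood at 0.08 in training heart 1 and at -0.08, -0.12, -0.12 and -0.22 in training hearts 2 to 5 on the log2 scale. Sedentary hearts ranged from -0.07 to 0.09. The coefficient of variation was larger among training than among sedentary hearts in 35 of 44 members, beside 50.7% of all genes, with a median of 8.86% against 5.25%, while the medians over all genes were 8.36% and 8.35%.

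**Figure D3:**
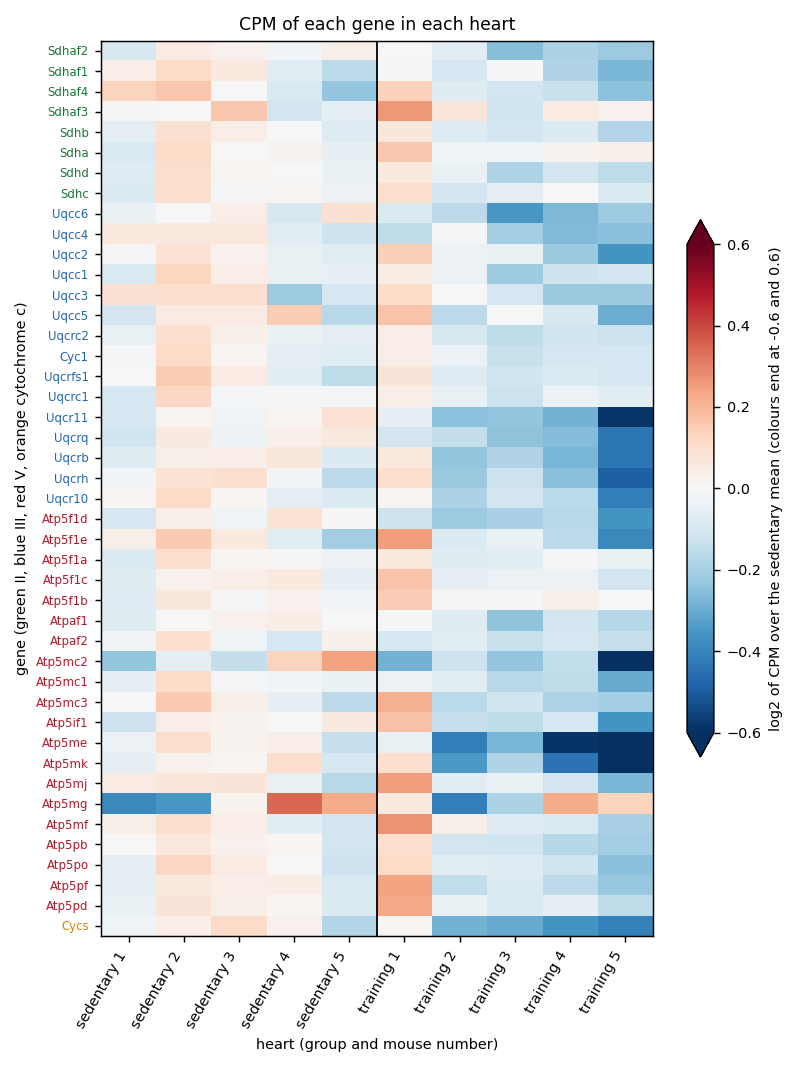
Log2 of the CPM of each gene (rows, symbols coloured by complex) in each heart (columns, sedentary left and training right of the line) over the sedentary mean of that gene, red above and blue below. Training heart 1 is red in most rows, and training hearts 2 to 5 are blue in most rows. The supernumerary Uqcr genes, Atp5me, Atp5mk and Atp5mc2 are darkest in training heart 5.

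The members were shorter (median 791 bases) than tested genes at large (median 2392 bases), so fold changes were read against length. The 20 members under 700 bases had a median of -0.12 and all 20 lay below 0; the 24 longer members had a median of -0.08. All 693 tested genes under 700 bases had a median of -0.09 and 467 lay below 0, with 43 called lower and 2 higher, which is 6.2% called lower. Of the 350 that are protein-coding, as all members are, 262 lay below 0 with a median of -0.10. Called lower were 9.71% of them, beside 3 of the 20 short members. Over the 44 members Pearson's r between log2 length and fold change was 0.373 and Spearman's rho 0.228, given as a description since the genes share the same 10 libraries. The share of counts in genes under 700 bases was 2.41% in training heart 5 and 3.09% in training heart 1, the lowest and the highest of the 10, and 2.76% to 2.93% in sedentary hearts. In training heart 5 the short members had a median of -0.36 against the sedentary mean and the longer members -0.14. In a further fit, the trend on length of each library's log counts, as deviations from the mean of each gene, was removed. Then 5 members were called lower beside 4.74% of all genes (Atp5f1d, Atp5me, Cycs, Uqcr11 and Uqcrq), 32 of 44 lay below 0 and the median was -0.05.

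**Figure D4:**
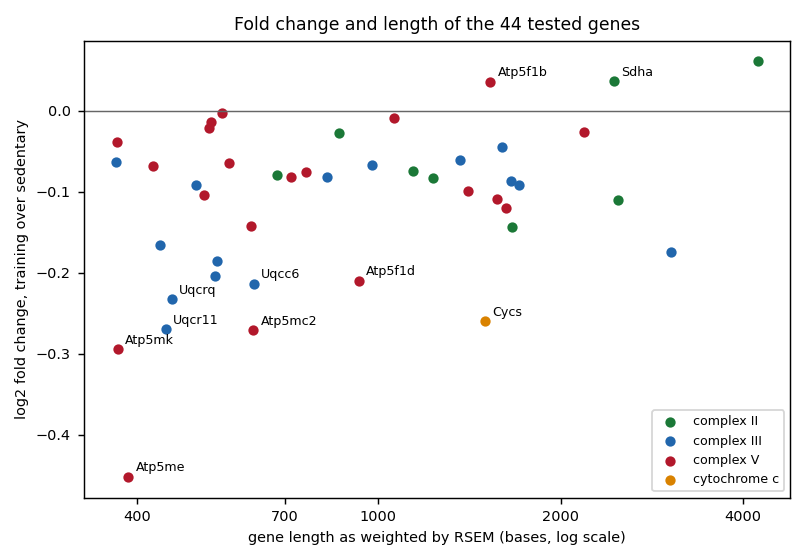
Log2 fold change, training over sedentary (y axis), of the 44 tested genes against gene length in bases on a log scale (x axis), coloured by complex, with the 5 called genes and 5 others named. The lowest points, Atp5me at -0.45 and Atp5mk at -0.29, are among the shortest genes. The longer Cycs at -0.26 and Atp5f1d at -0.21 lie above both.

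Processed copies of these genes limit what unique reads can count. For 36 of 44 members RSEM's expected counts were within 10% of the unique counts, and for 6 they exceeded 1.5 times: Atp5mg (14.8 times), Cycs (3.23), Atp5mc2 (2.85), Atp5po (2.85), Atpaf1 (2.56) and Atp5mk (1.87). Among windows of 100 bases along the annotated transcript nearest in length, an exact copy elsewhere in GRCm39 was found for 87.5% in Atp5mc2, mostly at the pseudogene Gm10231, 56.3% in Atp5mg, mostly at Gm10221, 47.7% in Atpaf1, at Gm14117, 34.6% in Cycs, mostly at Gm10053, and 27.4% in Atp5mk, at Gm14539. Atp5po had none but lies over its second identifier on the same strand. Atp5pd had 44.4% without a surplus of expected counts. Atp5mg kept only 6.53 to 11.0 CPM in unique counts with a fold change of -0.02 (SE 0.151), and its expected counts gave -0.11 (SE 0.088). For Atp5mc2 the expected counts gave -0.15 (SE 0.069) in place of -0.27, and for Atp5mk -0.17 (SE 0.074) in place of -0.29. For Atpaf1 they gave -0.055 (SE 0.038) in place of -0.12, so the fold changes of these genes are uncertain. Over all 44 members the expected counts gave a median of -0.09 and 4 calls, 9.09% beside 3.86% of all genes called lower: Atp5f1d, Cycs, Uqcc6 and Uqcrq.

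**Figure D5:**
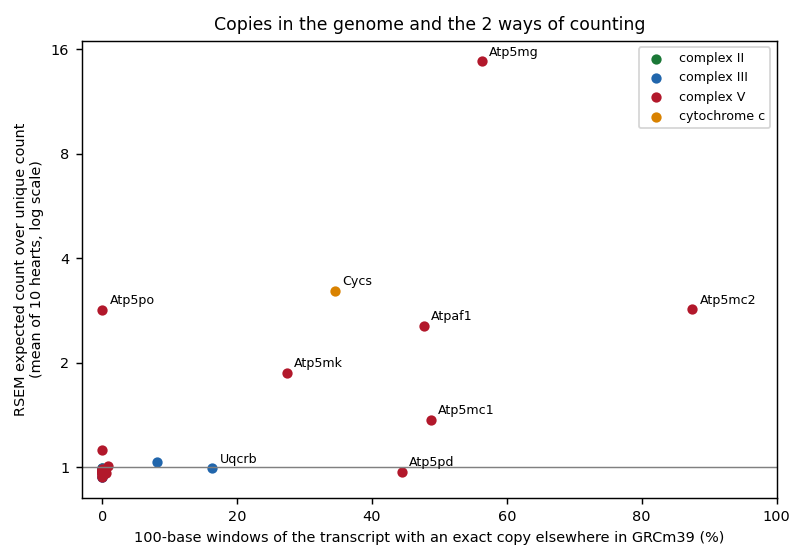
RSEM expected count over unique count (y axis, log scale, mean of 10 hearts) against the percent of 100-base windows of the transcript with an exact copy elsewhere in GRCm39 (x axis) for the 44 tested genes. Most genes sit at 1 near 0%, and Atp5mg stands highest at 14.8, while Atp5po exceeds 2 without copies.

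Promoters in the RefSeq table of GRCm38.p6, 250 bases before to 50 after the start, were found for 32 of the 44 symbols and searched on both strands for 4 motifs of factors known to act on nuclear genes of oxidative phosphorylation. The NRF1 motif (GCGC, any base, then TGCGC) was in the promoters of 12 of 32 members (37.5%) beside 5.19% of all genes, and the GABP motif CCGGAAG in 12 (37.5%) beside 9.93%. The YY1 motif AANATGGCG was in 5 (15.6%) beside 2.76%, and the ERR motif TCAAGGTCA in 2 (6.25%) beside 0.466%. Of the 5 called members, Uqcr11, Cycs and Atp5f1d had a promoter in the table, and of these only Uqcr11 held any of the 4. Windows of 30 bases are shown for Uqcr11 and for Atp5me, the lowest member, and for the c-ring genes with a match wholly before the start, with the match in capitals, on the strand of the gene.
Uqcr11, GABP, chr10:80406869-80406898, minus strand: ttctctcctccCCGGAAGtagatgtcaatg
Atp5me, NRF1, chr5:108434430-108434459, minus strand: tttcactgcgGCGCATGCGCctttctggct
Atp5mc2, NRF1, chr15:102671070-102671099, minus strand: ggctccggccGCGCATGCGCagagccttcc
Atp5mc3, ERR, chr2:73911359-73911388, minus strand: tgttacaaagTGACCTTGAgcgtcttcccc
A match is a stretch of letters and not a measured binding site.

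The other complexes of the chain, listed by their nuclear subunits, were read against the same 4.26% of all genes called lower. Of 37 complex I subunits 10 were called lower and 0 higher, with a median of -0.15 and 32 below 0, among them Ndufv3 at -0.30 (SE 0.064, adjusted p = 0.027) and Ndufa11 at -0.21 (SE 0.049, adjusted p = 0.038). Of 15 complex IV subunits 2 were called lower, the muscle isoform Cox8b at -0.37 (SE 0.107, adjusted p = 0.079) and Cox6b1 at -0.24 (SE 0.067, adjusted p = 0.068), with a median of -0.14. Of 13 genes of ubiquinone synthesis, the carrier that complexes II and III share, 3 were called lower (Coq3, Coq5 and Coq9, between -0.19 and -0.17) and 0 higher. Of 11 genes of cardiolipin and cristae structure, where complex V forms rows of dimers, 2 were called lower: Micos13 at -0.21 and Opa1 at -0.14. Of 14 assembly factors and partners with other names, such as Bcs1l, which inserts the Rieske protein, the adenine nucleotide carrier Slc25a4 and the phosphate carrier Slc25a3, 0 were called and 1 had an unadjusted p below 0.05, with a median of -0.05 and 13 below 0.

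Some markers of other cells and programmes were called in the same comparison, and the part of these lists in the results was not tested. Of 6 fibroblast markers all 6 had fold changes above 0 and 1, Pdgfra, was called higher, with a summed level of 1136 to 1408 CPM in training and 1000 to 1214 CPM in sedentary hearts. Of 6 endothelial markers 4 were below 0 and Fabp4 was called lower, with sums of 1056 to 1120 CPM and 1163 to 1229 CPM. Adipocyte markers summed to 19.8 to 165 CPM and 17.3 to 134 CPM. All 5 had fold changes above 0 with a median of 0.84, with 0 of 5 called and 0 of 5 at an unadjusted p below 0.05. Mural markers summed to 775 to 877 CPM and 836 to 944 CPM, with 4 of 5 below 0 and Rgs5 called lower. Macrophage markers summed to 156 to 206 CPM and 168 to 207 CPM, with 3 of 5 below 0 and 0 called. Erythroid markers summed to 39.13 to 98.8 CPM and 60.3 to 141 CPM. All 5 were below 0 with a median of -0.43, with 0 called and 1 at an unadjusted p below 0.05. Skeletal muscle markers summed to 1840 to 2293 CPM and 2333 to 2662 CPM, and of the 3 tested Acta1 and Ckm were called lower, both of which the heart also makes. Of 12 clock genes 7 were called, with Bmal1 at -1.19 (SE 0.214, adjusted p = 0.015) and Per3 at 0.80 (SE 0.146, adjusted p = 0.016).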

How the data were processed

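RNA of 10 whole hearts was sequenced, 5 per group, as directional poly-A libraries with single reads of 100 bases in 1 pool. Per the labels and methods, the authors aligned to GRCm39 with STAR 2.7.10a and deposited counts of uniquely mapped reads per gene for each strand, and with RSEM 1.3.3 they deposited expected counts and TPM. The reverse-strand counts were used (94.9 to 95.6% of the counts on either strand). Multimapping reads were 17.9 to 19.2% of all reads, and lines that name no gene were left out. Symbols and positions came from GENCODE M39 (56017 of 56748 identifiers matched). Groups came from the labels.

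Genes were tested with the quasi-likelihood F test of edgeR 4.0.16 under R 4.3.3 after its expression filter and TMM scaling, called at a Benjamini-Hochberg adjusted p below 0.1, and adjusted over all 15454 tested genes. Expected counts were rounded to whole numbers for the same test. DESeq2 1.42.0 was an alternative. The tests were checked on simulated data. CPM use TMM-corrected library sizes. The 95% intervals are 1.96 SE, an approximation somewhat narrower than the F test implies. For Uqcrh the interval ran from -0.355 to -0.016 although the unadjusted p of edgeR's quasi-likelihood test was 0.0502. Shares of the c-ring genes were tested by exact permutation over all 252 splits of the hearts (scipy 1.17.1 in Python). The members and lists were chosen with earlier results of these data known. Named were the called members, the main subunits, the lowest and highest fold change of each complex, and members whose expected counts exceeded 1.5 times the unique counts. Sequences came from GENCODE M39 transcripts and RefSeq promoters, and no promoter window on chromosome 18 was read.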

Additional observations from a re-analysis of the deposited data

Results flagged for a closer look

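In 11 cases 1 heart stood apart from the other 4 hearts of its group by Dixon's criterion, of 88 groups of 5 hearts examined, where chance flags about 1 in 20. Of these, 10 were the highest training value and belonged to training heart 1. In CPM, this heart had 1597 for Sdha (next training heart 1456), 874 for Uqcrc2 (next 796), 678 for Uqcrfs1 (next 609), 5036 for Atp5f1b (next 4652), 925 for Atp5f1c (next 804) and 1028 for Atp5mc3 (next 816). It further had 741 for Atp5pb (next 640), 671 for Atp5pd (next 556), 383 for Atp5pf (next 306) and 139 for Cycs (next 113). The remaining value was 601 CPM for Atp5mc1 in sedentary heart 2 (next 553). The genes share their libraries, so these are not separate events. Without training heart 1 the median log2 fold change of the members was -0.14 in place of -0.08.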

How the results depend on the processing

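The median log2 fold change of the members was below 0 in all 22 alternatives, from -0.14 to -0.03, and no alternative called a member higher. The number called lower, 5, became 8 with DESeq2's Wald test, 8 with no filter on low counts and 3 with library totals alone. Over all genes, 856 of 15454, 681 of 30041 and 339 of 15454 were called lower in these settings. The main fit called 659 of 15454 lower. The number of members was 2 at an adjusted p below 0.05. The share of all genes called at that threshold is not given here, so these 2 cannot be read against it. At the threshold of 0.1, the number of members was 0 with the atrial score as a covariate (0.498% of all genes), and 1 to 14 when 1 heart was left out. Expected counts without training replicate 1, chosen after seeing the data, gave 12, beside 596 of 16076 genes called lower in that fit. Of 23 alternatives Atp5f1d lost its call in 1 (the atrial score), Uqcrq in 5, Uqcr11 in 9, Cycs in 10 and Uqcc6 in 15. Of 44 members, 41 lay below 0, and 32 to 42 did under the alternatives (33 with library totals alone, 32 with the length trend removed, 36 without training replicate 5). Among the 27 genes whose fold change was followed singly, signs turned only for uncalled genes: with library totals alone Atp5f1a (0.027), Atp5mg (0.035), Sdhc (0.026) and Uqcrc1 (0.0093); with both strands Atp5mg (0.022) and Atp5po (0.041); with the length trend removed Atp5mg (0.070) and Sdhc (0.016); with the atrial score Atp5f1a (0.017), Sdhc (0.0080) and Uqcrc1 (0.035); with single hearts left out Atp5mg (-0.11 to 0.078); and with expected counts without training replicate 1 Sdhaf3 (-0.0045). The causes were not tested.

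Mouse numbers are shared between the groups, and the main fit did not pair hearts by number. Deviations of same-numbered hearts from their group means had weak correlations (-0.10, 0.16, 0.08, 0.02 and 0.16). The best match of training heart 5 was sedentary heart 5, and training hearts 1 to 4 matched best with hearts of other numbers. Correlations of this kind in 5 pairs cannot exclude a pairing. With the mouse number as a replicate block 7 members were called lower with a median of -0.09, beside 669 of 15454 genes called lower. Deposited TPM, chosen after seeing the data, gave differences in c-ring share of -0.34, -0.37 and 0.71 percentage points for Atp5mc1, Atp5mc2 and Atp5mc3 with no exact p under 0.611. With 5 hearts a group, the standard errors of the members ran from 0.045 for Atpaf2 to 0.151 for Atp5mg on the log2 scale, which limits what changes could be called.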
